A study of Mus musculus with 369 samples.

Results

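Chemokines are small secreted proteins that attract cells, and the RNA of 9 chemokine ligands, Ccl2, Ccl3, Ccl4, Ccl6, Ccl7, Ccl9, Ccl12, Cxcl10 and Cxcl16, is described here in single microglia. The members are the rows of the count table with these symbols, 9 of 23337 genes. Microglia, the resident macrophages of the brain, were taken at postnatal day 7 from male mice of strain C57BL/6J that were wild type or carried a Trem2 knockout (TREM2_KO). Trem2 is a lipid-binding surface receptor of these cells. Cells of each genotype were sorted into wells either as CD45 low, CD11b positive cells, called unselected, or with the proteins Gpnmb and Clec7a on the surface as a further demand, called gated. RNA of each cell was amplified with Smart-seq2, a plate method without molecular identifiers. The 4 groups were wild-type unselected with 90 cells, wild-type gated with 93, knockout unselected with 93 and knockout gated with 93, and 78, 90, 90 and 76 of these cells passed the quality criteria of the labels. In all 334 cells passed and 35 did not. Groups are always given in this order below.

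Each group came from 1 plate, all plates went into 1 library pool, and no label names an animal. A group is therefore 1 sample, and no difference between groups could be tested. Effects of plate, genotype and gate cannot be told apart. Differences were called by size alone, and intervals are exact 95% intervals that cover counting error only, because amplified reads are not independent molecules.

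Chemokines bind G protein-coupled receptors on leukocytes, and most are held on heparan sulfate so that a gradient forms. In mice, Ccl3 acts on Ccr1. Ccl6 and Ccl9 are rodent chemokines for which Ccr1 is the known receptor, and Ccl2, Ccl7 and Ccl12 act on Ccr2, the receptor that brings monocytes into inflamed tissue. Cxcl10 is an interferon-induced ligand of Cxcr3. Cxcl16 is made as a membrane protein, binds Cxcr6 and is released when Adam10 cuts it. Microglia that take part in development or disease are known to make several of these ligands, and Ccl3 and Ccl4 are also known to be induced when tissue is dissociated.

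On mm10, 8 of the 9 genes lie on chromosome 11 and Cxcl10 lies on chromosome 5 (92346638 to 92348889, minus strand). Ccl2 (82035571 to 82037453, plus strand), Ccl7 (82045712 to 82047525, plus strand) and Ccl12 (82101845 to 82103400, plus strand) form 1 cluster, with 8258 bases between Ccl2 and Ccl7. Another cluster, 1469518 bases beyond Ccl12, holds Ccl9 (83572919 to 83578636, minus strand), Ccl6 (83587882 to 83593087, minus strand), Ccl3 (83647844 to 83649355, minus strand) and Ccl4 (83662584 to 83664683, plus strand). In it 9245 bases separate Ccl9 from Ccl6 and 13228 bases separate Ccl3 from Ccl4. Cxcl16 lies apart (70453983 to 70459984, minus strand). Other genes of the annotation overlap Ccl2 (Gm17268), Ccl6 (E230016K23Rik), Cxcl10 (Art3) and Cxcl16 (Zmynd15) on the opposite strand, and the sources used here do not say whether strand was used in the counting, so such counts cannot be told apart. Of these, E230016K23Rik reached 1.32 CPM (counts scaled to an equal sum of gene counts in each group) at most, Art3 4.56 CPM and Zmynd15 5.99 CPM, and Gm17268 has no row in the table.

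RefSeq promoter windows on GRCm38.p6 were matched for 5 of the 9 genes. Below are the 250 bases before the start of Ccl3 (chr11:83649379-83649628), Ccl6 (chr11:83593088-83593337) and Ccl9 (chr11:83578637-83578886), the 3 ligands with the most counts over all cells, and of Cxcl10 (chr5:92348890-92349139), the ligand without any. All 4 genes are on the minus strand and are written 5' to 3' along the gene. Capitals mark matches, on either strand, to ACTTCC, the core bound by PU.1 and other ETS factors, to TGANTCA, the AP-1 motif, to TATAAA, and to the NF-kB motif and the interferon-stimulated response element.
Ccl3: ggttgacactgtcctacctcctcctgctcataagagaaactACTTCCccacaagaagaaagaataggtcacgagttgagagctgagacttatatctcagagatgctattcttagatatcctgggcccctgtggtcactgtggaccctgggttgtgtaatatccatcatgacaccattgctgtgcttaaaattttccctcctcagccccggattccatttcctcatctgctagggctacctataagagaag
Ccl6: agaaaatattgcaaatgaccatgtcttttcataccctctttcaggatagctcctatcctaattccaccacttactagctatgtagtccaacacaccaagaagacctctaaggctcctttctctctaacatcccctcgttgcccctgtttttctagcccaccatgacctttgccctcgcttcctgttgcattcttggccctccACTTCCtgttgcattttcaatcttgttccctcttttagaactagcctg
Ccl9: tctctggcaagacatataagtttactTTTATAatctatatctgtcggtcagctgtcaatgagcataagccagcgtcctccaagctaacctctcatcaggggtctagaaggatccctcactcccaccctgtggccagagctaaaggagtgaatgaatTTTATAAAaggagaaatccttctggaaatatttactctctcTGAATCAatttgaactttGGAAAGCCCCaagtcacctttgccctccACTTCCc
Cxcl10: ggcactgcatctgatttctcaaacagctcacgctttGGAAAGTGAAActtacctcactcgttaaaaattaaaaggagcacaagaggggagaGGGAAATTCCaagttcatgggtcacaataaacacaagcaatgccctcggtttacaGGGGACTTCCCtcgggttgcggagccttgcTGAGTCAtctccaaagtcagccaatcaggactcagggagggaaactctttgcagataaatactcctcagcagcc
The core ACTTCC was present in all 5 ligand windows, that of Ccl12 included, and in 23.8% of the 32851 RefSeq windows of the same length, which reach from 250 bases before the start to 50 after it. It was the only match of the Ccl3 and the Ccl6 window, 209 and 48 bases before the start. Ccl9 also held the NF-kB motif (8.46% of all windows), TGANTCA (7.81%) and 3 matches to TATAAA (13.6%), of which 2 overlap. Cxcl10 also held TGANTCA, the interferon-stimulated response element (2.52% of all windows) and the NF-kB motif at 159, 104 and 103 bases before the start, the last 2 overlapping each other and its ACTTCC. Of 10 pairs of windows, Ccl6 and Ccl9 had the longest local alignment, 67 aligned bases with 88.1% identical. Its longest unbroken run was gccctccACTTCC, 13 bases that begin 55 bases before the start of Ccl6 and 14 before that of Ccl9. A match is a description of letters, and binding was not measured.

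The passing cells held 157653 to 1051282 gene counts each, with medians of 494746, 630968, 649634 and 697689 in the 4 groups. Median detected genes were 2607.5, 3162.5, 2184 and 3995, and gene counts per count of added spike-in RNA had medians of 24.9, 39.8, 18.1 and 53.7. Detection is therefore given after each cell was thinned to 100000 gene counts. The row Rn45s, a ribosomal RNA precursor, took 16.2%, 15.8%, 13.6% and 14.6% of gene counts. Trem2, which checks the genotype label, stood at 1115, 1604, 229 and 413 CPM, so it was lower but present in the cells labelled knockout. Gpnmb stood at 216, 1697, 85.2 and 4233 CPM and Clec7a at 53.5, 346, 40.9 and 594 CPM. Counts for at least 7 of 9 microglia markers were found in 321 passing cells, and 1 knockout unselected cell had none of the 9 and no ligand count.

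Ligand RNA was sparse and uneven between cells, and 8 of the 9 ligands had a count in at least 1 passing cell. Summed over the 9 ligands, the level was 417, 1165, 688 and 1057 CPM, higher in both gated groups. Ccl9 alone made up 49.7%, 44.0%, 44.2% and 59.96% of that sum. A cell held a median of 2, 3, 1.5 and 3 ligands after thinning, and 17.9%, 3.33%, 20.0% and 1.32% of cells held none. The lowest cell was at 0 for every ligand in every group, as the plot of level per cell shows.

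**Figure D1:**
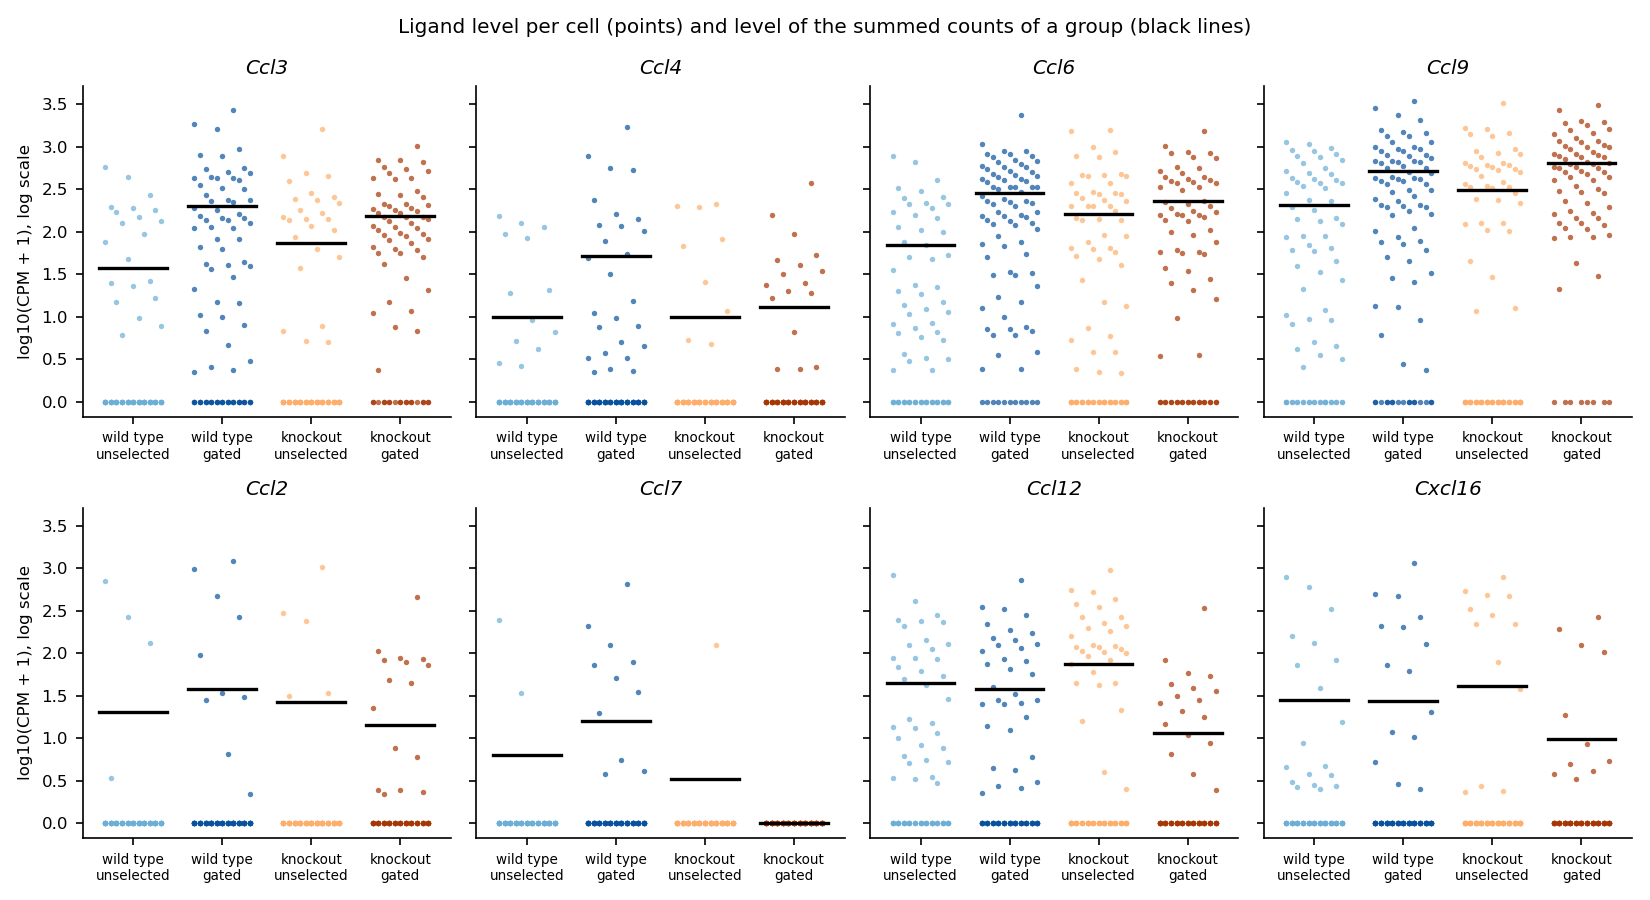
Level of 8 ligands in each passing cell of the 4 groups, as log10(CPM + 1), with 1 point per cell and a black line at the level of the group's summed counts. Ccl3, Ccl6 and Ccl9 had counts in more than 70% of knockout gated cells, while single cells carry most of the Ccl2 and Ccl7 counts of several groups.

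Per kilobase of exon, the order of levels in both unselected groups was Ccl12, Ccl9, Ccl3, Ccl6, Ccl2, Ccl4, Cxcl16 and Ccl7. In wild-type unselected cells Ccl12 reached 80.2 CPM per kb and Ccl9 68.1. In wild-type gated cells Ccl3 led with 263 CPM per kb, before Ccl9 at 168, Ccl6 at 159 and Ccl4 at 75.9. In knockout gated cells Ccl9 led with 208 CPM per kb, before Ccl3 at 199 and Ccl6 at 126, and the next, Ccl12, was at 19.5. Intervals of neighbours in these orders overlapped for Ccl9 and Ccl3 and for Ccl4 and Cxcl16 in knockout unselected cells, and for Ccl12 and Ccl4 in knockout gated cells.

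Ccl3, also called MIP-1 alpha, was higher in gated than in unselected cells of both genotypes, by level and by detection. Its median cell stood at 0, 24.1, 0 and 88.9 CPM and its highest cell at 580, 2665, 1613 and 1018 CPM. Summed counts gave 36.4 CPM (34.6 to 38.4), 202 CPM (198 to 206), 73.3 CPM (71.1 to 75.6) and 153 CPM (149 to 156). The gated groups were thus the high ones, although cells without Ccl3 remained in all 4 groups. After thinning, Ccl3 was detected in 24.4% (15.3 to 35.4), 57.8% (46.9 to 68.1), 25.6% (16.9 to 35.8) and 73.7% (62.3 to 83.1) of cells. On the scale of log2 of CPM plus 1, used for all differences and understating those of low genes, the gate difference was 2.44 in wild-type and 1.05 in knockout cells. Knockout minus wild type came to 0.99 in unselected cells, where detection was almost equal, and to -0.40 in gated cells.

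Ccl4, or MIP-1 beta, the neighbour of Ccl3, was highest in wild-type gated cells and was not at the same level in knockout gated cells. The median cell was at 0 in every group, and the highest cells stood at 151, 1720, 212 and 375 CPM. Summed levels were 8.98 CPM (8.06 to 9.97), 50.1 CPM (48.2 to 52.02), 8.96 CPM (8.20 to 9.78) and 12.02 CPM (11.08 to 13.02). The gate difference was 2.36 on the log2 scale in wild-type and 0.39 in knockout cells, and the genotype difference was -0.00 in unselected and -1.97 in gated cells. Detection did not share this pattern, with 10.3%, 20.0% (12.3 to 29.7), 10.0% and 18.4% (10.4 to 28.97) of cells after thinning. The 2 gated groups thus held Ccl4 in similar shares of cells, but cells with at least 5 thinned counts made up 13.3% of the wild-type and 6.58% of the knockout gated cells. Without the highest cell of each group, which in knockout gated cells held 47.6% of the counts, the genotype difference in gated cells was -2.43 and the gate difference in the knockout was -0.02. In cells with 2000 to 4500 detected genes Ccl4 was at least 2-fold higher in knockout unselected cells, with a log2 of 1.18.

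Ccl6, a CC chemokine found in rodents, had counts in most cells of the wild-type gated group. Median cells stood at 3.43, 154, 4.63 and 93.1 CPM and highest cells at 780, 2327, 1567 and 1528 CPM. Summed levels were 69.2 CPM (66.6 to 71.8), 285 CPM (281 to 290), 160 CPM (157 to 164) and 226 CPM (222 to 230), lowest in wild-type unselected cells. It was detected in 43.6% (32.4 to 55.3), 80% (70.3 to 87.7), 51.1% (40.3 to 61.8) and 67.1% (55.4 to 77.5) of cells. The gate difference was 2.03 in wild-type and 0.49 in knockout cells on the log2 scale. In unselected cells Ccl6 was 2.30-fold higher in the knockout (log2 1.20), the only ligand past 2-fold there, and the value was 0.71 when levels were scaled to spike-in counts. In gated cells the genotype difference was -0.33.

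Ccl9, also known as MIP-1 gamma, had the most counts of all ligands in every group. Median cells were at 41.3, 253, 0 and 485 CPM and highest cells at 1125, 3427, 3218 and 3067 CPM. Knockout unselected cells combined a median of 0 with a summed level above that of wild-type unselected cells. The summed levels were 207 CPM (203 to 212), 513 CPM (507 to 519), 304 CPM (299 to 308) and 634 CPM (627 to 641), and detection was 57.7% (45.98 to 68.8), 78.9% (69.01 to 86.8), 45.6% (35.02 to 56.4) and 89.5% (80.3 to 95.3). Ccl9 was the ligand whose gate difference was closest between the genotypes, 1.30 in wild-type and 1.06 in knockout cells. The genotype differences were 0.55 in unselected and 0.31 in gated cells.

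Ccl2, the monocyte attractant MCP-1, was present in few cells. A count was present in 4, 10, 5 and 16 cells, and 1 cell carried 74.4%, 46.7%, 72.3% and 38.8% of a group's counts. Among cells with a count the medians were 199, 63.4, 241 and 45.5 CPM and the highest 710, 1203, 1015 and 457 CPM. Knockout gated cells therefore had Ccl2 in the most cells and at the lowest level per positive cell. Summed levels were 19.5, 36.4, 25.9 and 13.3 CPM, which gave a genotype difference of -1.39 in gated cells, while detection was 10.0% (4.68 to 18.1) in the wild-type and 14.5% (7.45 to 24.4) in the knockout gated group. The gate differences, 0.87 in wild-type and -0.91 in knockout cells, depended on the highest cells. Without them the wild-type difference was larger, at 1.76, and the knockout difference was 0.15. The wild-type difference passed 2-fold in 5 of 11 alternative settings. In the knockout the direction also turned with scaling to spike-in counts, to 0.35.

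Ccl7, or MCP-3, was the rarest ligand with any count. It was found in 2, 11, 1 and 0 cells, and 1 cell held 92.8%, 61.9% and 100% of the counts of the first 3 groups. The cells with a count had medians of 138, 49.8 and 124 CPM in those groups. Summed levels were 5.36 CPM, 14.9 CPM, 2.28 CPM and 0, so wild-type gated cells were the only group with more than 2 positive cells. After thinning, detection was 2.56%, 11.11% (5.46 to 19.5), 1.11% and 0%, and 0 of 76 knockout gated cells allows a share of up to 3.95% by the floor of 3 cells, or 4.74% as the upper end of the exact interval. With 3 counts as the floor for a group at 0, wild-type gated cells were 251-fold above the floor of knockout gated cells. Without the 1 wild-type gated cell with the most counts they were 96.9-fold above it. Folds against this floor are not lower bounds for a group, because reads of a cell are not independent and cell sampling is not covered. Knockout unselected cells, where 1 cell held all counts, were 38.5-fold above the same floor. On the log2 scale of CPM plus 1 the gate difference was 1.32 in wild-type and -1.72 in knockout cells, and the latter was 0 without that cell.

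Ccl12, or MCP-5, the third of the Ccr2 ligands, was low in knockout gated cells. The median cell was at 0 in all groups and the highest at 832, 716, 948 and 342 CPM. Summed levels were 43.1 CPM (41.05 to 45.2), 36.5 CPM (34.9 to 38.2), 73.3 CPM (71.1 to 75.6) and 10.5 CPM (9.58 to 11.4), highest in knockout unselected and lowest in knockout gated cells. The gate difference was -2.70 in the knockout, the largest of the ligands with counts in both groups, and -0.23 in the wild type. Detection was 29.5%, 32.2% (22.7 to 42.9), 32.2% (22.7 to 42.9) and 18.4% (10.4 to 28.97), and at 5 or more thinned counts 21.8%, 22.2%, 28.9% and 5.26%. The genotype difference was 0.75 in unselected and -1.71 in gated cells, and the former was 1.59 in cells with 2000 to 4500 detected genes.

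Cxcl16 was detected in similar shares of cells of all groups, 14.1%, 14.4%, 11.11% and 11.8%. Highest cells stood at 787, 1145, 784 and 266 CPM and the median cell at 0. Summed levels were 27.3 CPM (25.7 to 29.02), 26.6 CPM (25.3 to 28.03), 39.6 CPM (38.03 to 41.3) and 8.75 CPM (7.96 to 9.61). Knockout gated cells were lowest, by -2.06 on the log2 scale against knockout unselected and by -1.501 against wild-type gated cells. The gate difference was -0.04 in the wild type. In cells with 2000 to 4500 detected genes it was 1.495 there, past 2-fold, and the genotype difference in unselected cells went from 0.52 to 1.35. With spike-in scaling the gate difference in the knockout was -0.80, under 2-fold.

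Cxcl10, the interferon-induced ligand whose promoter window is printed above, had no count in any of the 334 passing cells. By the floor of 3 cells that allows a share of cells with a count of up to 3.85%, 3.33%, 3.33% and 3.95% in the 4 groups, and the exact intervals reach 4.62%, 4.02%, 4.02% and 4.74%.

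**Figure D2:**
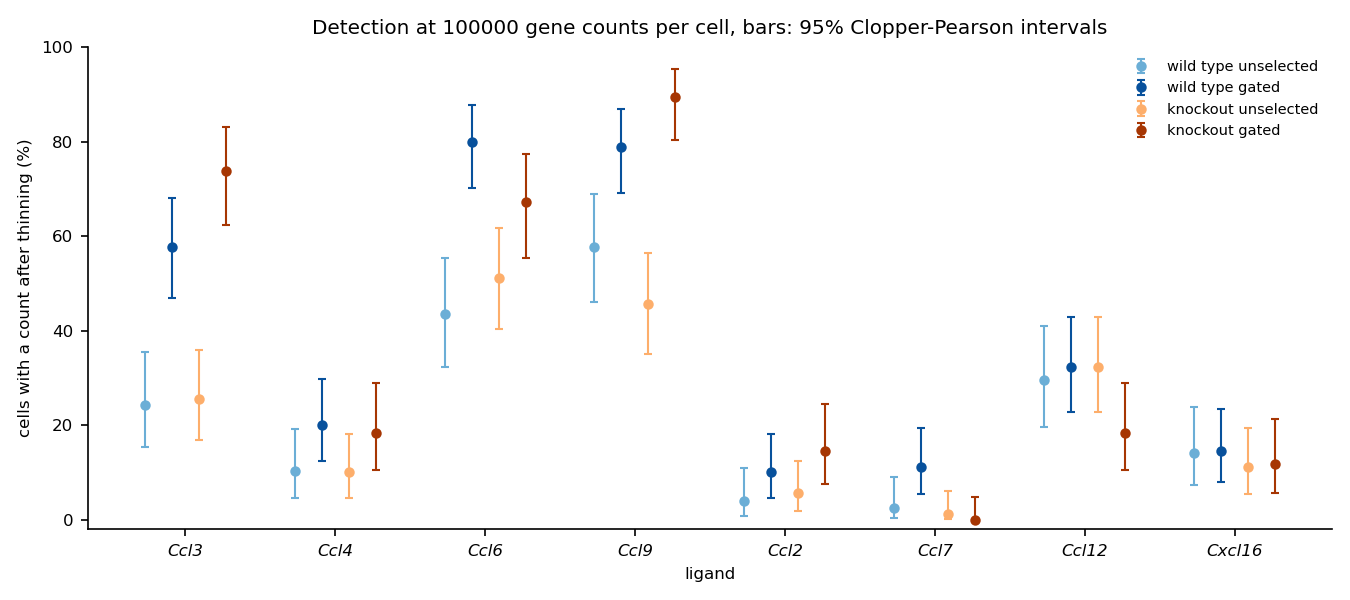
Share of passing cells with at least 1 count after thinning to 100000 gene counts, in percent, for 8 ligands and 4 groups, with 95% Clopper-Pearson intervals. Ccl3 was at 57.8% and 73.7% in the gated groups against 24.4% and 25.6% in the unselected groups, while the intervals of Cxcl16 overlap between all 4.

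The first comparison, gated against unselected cells, asks which ligand RNAs accompany the Gpnmb and Clec7a surface state. In wild-type cells 5 of the 8 measured ligands (5 CPM or more in a group) were at least 2-fold higher in gated cells, Ccl3, Ccl4, Ccl6, Ccl7 and Ccl9, where 15.18% of the 10554 measured genes were. None was at least 2-fold lower, against 19.91% of genes. The median over the measured ligands was 1.31 and over all measured genes -0.12.

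In knockout cells 2 ligands, Ccl3 and Ccl9, were at least 2-fold higher in gated cells, against 12.36% of genes. At least 2-fold lower were 3, Ccl7, Ccl12 and Cxcl16, against 21.98% of genes. The median was -0.26, the same as that of all measured genes. Every ligand with counts had a lower gate difference in the knockout than in the wild type, from 0.24 lower for Ccl9 to 3.04 lower for Ccl7, and these differences of differences were not tested. With levels scaled to spike-in counts this order turned for Ccl9, at 1.77 in the wild type and 2.39 in the knockout. Gated knockout cells also had the most gene counts per spike-in count. When levels were scaled to spike-in counts, the all-gene medians moved to 0.29 for the gate in wild-type and 0.98 in knockout cells, and to -0.38 and 0.35 for the genotype in unselected and gated cells. In the knockout 4 ligands were then at least 2-fold higher (Ccl3, Ccl4, Ccl6 and Ccl9) and 2 lower (Ccl7 and Ccl12), beside 50.5% and 4.37% of all genes.

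The second comparison, knockout against wild type, sets ligand RNA of both genotypes side by side in each gate, where genotype and plate cannot be told apart. In unselected cells Ccl6 was the 1 ligand at least 2-fold higher in the knockout, against 16.52% of genes, and none was at least 2-fold lower, against 13.27% of genes. Ccl3, at 1.99-fold, lay just under the limit. The median was 0.53, and that of all measured genes was 0.05.

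In gated cells no ligand was at least 2-fold higher in the knockout, against 11.4% of genes, while 5 were at least 2-fold lower, Ccl2, Ccl4, Ccl7, Ccl12 and Cxcl16, against 12.08% of genes. The median was -1.44 and that of all measured genes 0.00. The ligands that differed by less, Ccl3, Ccl6 and Ccl9, were the 3 with the highest summed levels in gated cells. All 3 Ccr2 ligands were among the 5 lower ones. The direction of the Ccl6 difference turned with spike-in scaling, from -0.33 to 0.04, and the 5 lower ligands kept their calls under it.

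**Figure D3:**
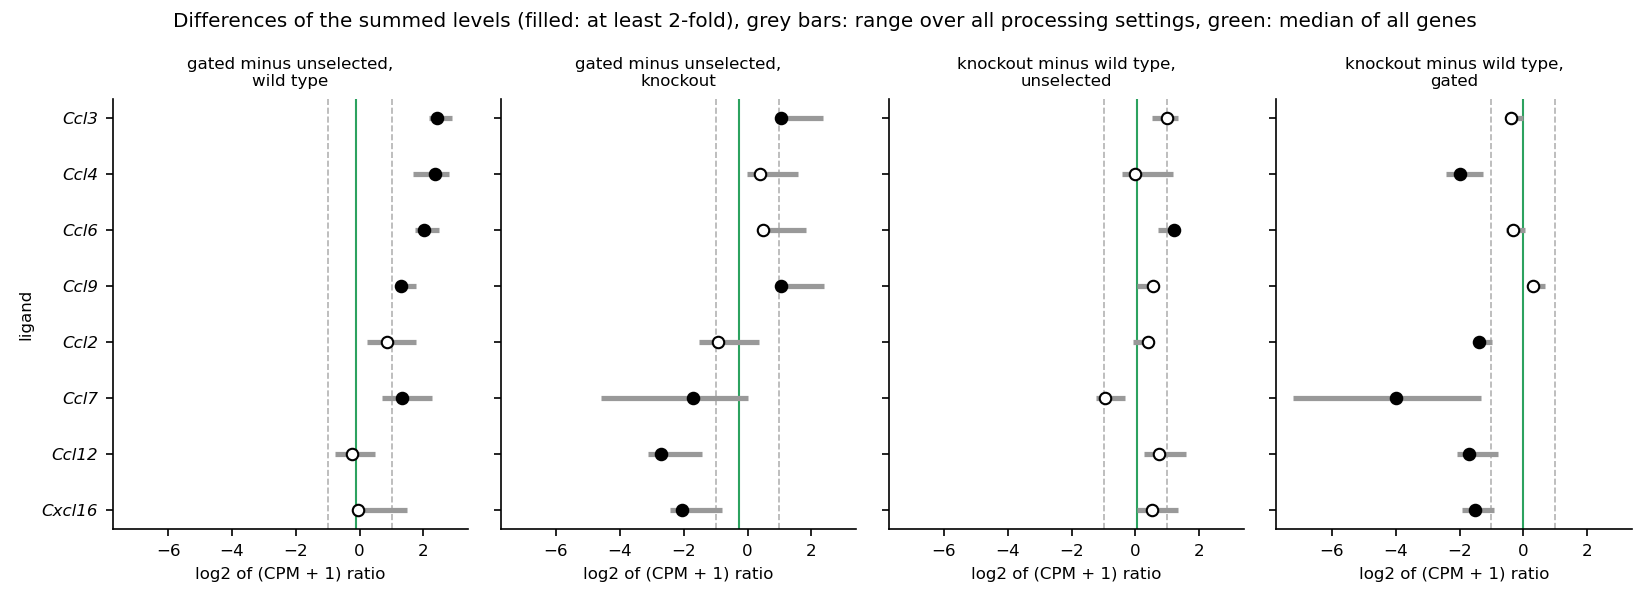
Difference of each ligand in the 4 comparisons, as log2 of the ratio of summed levels plus 1 CPM, with filled points for at least 2-fold, dashed lines at 2-fold, grey bars for the range over all processing settings tried and a green line at the median of all measured genes. In wild-type cells 5 ligands lie at least 2-fold above 0 for the gate, and in gated cells 5 lie at least 2-fold below 0 for the knockout.

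Most cells with Ccl4 also held Ccl3, while most cells with Ccl3 held no Ccl4. After thinning, both were present in 5, 18, 7 and 14 cells, Ccl3 alone in 14, 34, 16 and 42, Ccl4 alone in 3, 0, 2 and 0, and neither in 56, 38, 65 and 20. Of all 49 cells with Ccl4, 44 also held Ccl3 (89.8%), and of the 150 cells with Ccl3, 29.3% held Ccl4 (22.2 to 37.3). Cells without Ccl3 held Ccl4 in 2.72% (0.89 to 6.23) of 184 cases. The overlap was thus largely one-way. In this draw the exceptions were 3 of the 8 Ccl4 cells in the wild-type unselected and 2 of the 9 in the knockout unselected group. Without thinning 60 cells had both, 101 Ccl3 alone and 6 Ccl4 alone, the last being 5, 1, 0 and 0 by group. Thinning with a second seed gave 1, 2, 1 and 1 cells with Ccl4 alone. The groups that hold the exceptions therefore depend on the draw.

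By group, 26.3% (9.15 to 51.2), 34.6% (21.97 to 49.1), 30.4% (13.2 to 52.9) and 25% (14.4 to 38.4) of Ccl3 cells held Ccl4, with intervals that overlap throughout. At a stricter demand of 5 thinned counts for each gene, the share was 29.3% in wild-type gated and 10.6% (5 of 47 cells) in knockout gated cells. In cells with both RNAs before thinning, the median ratio of Ccl4 to Ccl3 counts was 0.47, 0.35, 0.44 and 0.17. Summed Ccl3 counts were 4.06, 4.03, 8.18 and 12.7 times the summed Ccl4 counts. Knockout gated cells were therefore at the low end of Ccl4 relative to Ccl3, and in 0 of their 17 cells with both did Ccl4 exceed Ccl3, against 1 of 8, 2 of 26 and 3 of 9 in the other groups. Levels of the pair had Pearson correlations of 0.39, 0.53, 0.48 and 0.37 across the 78, 90, 90 and 76 cells on the log2 scale, where the points share a plate, a library pool and the range of depth.

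**Figure D4:**
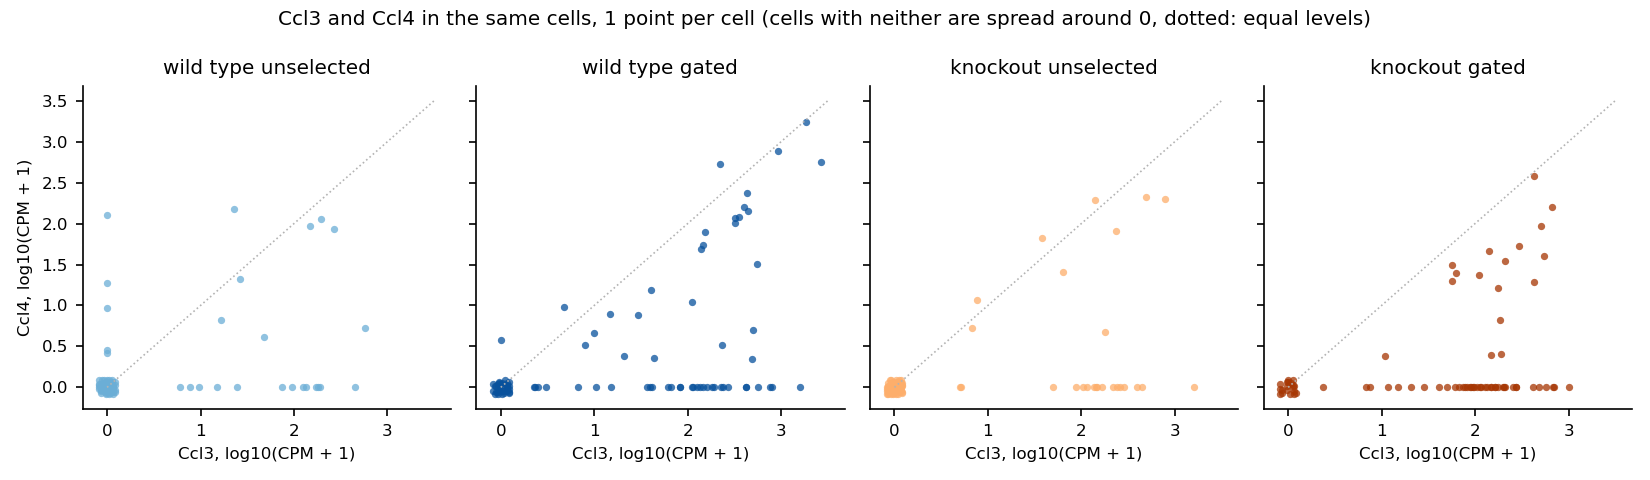
Level of Ccl4 against Ccl3 in each passing cell, both as log10(CPM + 1), with 1 panel per group, 1 point per cell and a dotted line of equal levels. Points along the bottom are cells with Ccl3 alone, and few points lie on the left edge, where Ccl4 stands without Ccl3.

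Other pairs overlapped as well, within a gene cluster and across clusters. Where no group is named, the shares are pooled over all groups, which differ in detection. Of 13 cells with Ccl7 after thinning, 9 held Ccl2, while Ccl7 was in 1.31% (0.36 to 3.31) of the 306 cells without Ccl2. In knockout gated cells 11 cells held Ccl2 and none of them Ccl7. Ccl12, the third gene of that cluster, was in 42.9% (24.5 to 62.8) of Ccl2 cells and 27.1% (22.2 to 32.5) of cells without Ccl2, which are overlapping intervals. Over all 334 cells, Ccl9 was in 80.8% (74.7 to 86.0) of Ccl6 cells and in 46.6% (37.8 to 55.5) of cells without Ccl6. Within groups these intervals overlapped except in knockout unselected cells, at 65.2% (49.8 to 78.6) and 25% (13.2 to 40.3). In wild-type gated cells they were 83.3% (72.7 to 91.1) and 61.1% (35.7 to 82.7). The within-group correlation of this pair ranged from 0.04 in wild-type gated to 0.35 in knockout unselected cells. Across clusters, Ccl4 was in 66.7% (29.9 to 92.5) of the 9 wild-type gated cells with Ccl2 and in 14.8% (7.90 to 24.4) of those without, but in 18.2% and 18.5% in the knockout gated group. Ccl3 was in all 11 knockout gated cells with Ccl2 (71.5 to 100) and in 69.2% (56.6 to 80.1) of those without, which are overlapping intervals.

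Likeness to other genes was measured as the mean of the within-group Spearman correlations of thinned counts over the groups in which a ligand was detected in at least 10% of cells. Ccl4 was the gene most like Ccl3, and Ccl3 the gene most like Ccl4, with a mean of 0.40 over 334 cells of 4 groups among 5705 genes, and 0.36 after ranks of detected genes were regressed out. Next to Ccl3 came Atp6v1a (0.37), a subunit of the lysosomal proton pump, and Hif1a (0.32), the oxygen-responsive transcription factor. For Ccl4 these were Prkdc (0.32) and Rftn1 (0.30). Ccl9 was closest to Ctsl (0.31), a lysosomal protease, Lpl (0.26), lipoprotein lipase, and Csf1 (0.25), and Ccl6 to Slc12a2 (0.27), Tcn2 (0.27) and Ctsl (0.26). Ccl12 was closest to H2-DMa (0.22), Unc93b1 (0.22) and Rgl2 (0.21), and Cxcl16 to 2310008H04Rik (0.29), C80913 (0.29) and Pi4k2a (0.26). For Ccl2, over 166 cells of 2 groups and 7001 genes, they were Fam53a (0.40), Tmem185b (0.37) and Rrs1 (0.36). Most of these values are weak, and they are descriptions of sparse counts.

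Among the receptors, 10 of 24 were measured. Ccr1, the receptor of Ccl3, Ccl6 and Ccl9, stood at 66.8, 49.4, 93.6 and 29.8 CPM, and Ccr1l1 at 16.2, 2.44, 0 and 0 CPM. Ccr2, the receptor of Ccl2, Ccl7 and Ccl12, had no count in any group. Cxcr3 stood at 0, 13.6, 19.4 and 5.80 CPM, and Cxcr6, the receptor of Cxcl16, at 10.7, 0, 0.12 and 0.36 CPM. Cxcr2, a receptor of neutrophil attractants, stood at 35.7, 0.019, 47.7 and 0.059 CPM. With the gate 4 receptors were at least 2-fold higher and 4 lower in the wild type and 1 higher and 7 lower in the knockout, and for the knockout 4 were higher and 2 lower in unselected and 1 higher and 4 lower in gated cells. Beside these counts, 15.18% of all measured genes were higher and 19.91% lower with the gate in the wild type, 12.36% and 21.98% with it in the knockout, and for the knockout 16.52% and 13.27% in unselected and 11.4% and 12.08% in gated cells. The receptor medians were -0.44, -1.60, 0.44 and -0.84. The 4 receptors higher with the gate in the wild type were all under 5 CPM in wild-type unselected cells, so the limit of 5 CPM favoured these calls.

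Of 28 other chemokine ligands 4 were measured. Gated cells had 4 of them at least 2-fold higher in the wild type and 2 in the knockout, beside 15.18% and 12.36% of all measured genes. For the knockout 2 were higher in unselected and 2 lower in gated cells, beside 16.52% and 12.08% of genes. The medians were 3.33, 0.60, 1.502 and -1.09. All 4 were under 5 CPM in wild-type unselected cells and passed the limit of 5 CPM through other groups. Calls of higher levels against that group were thus favoured by the limit. Pf4 (platelet factor 4, Cxcl4) stood at 4.59, 90.2, 3.23 and 33.7 CPM and is also in the list of border-associated macrophage markers. Ccl24, an eotaxin, stood at 0, 30.9, 11.02 and 6.79 CPM and Cxcl14 at 0, 5.25, 0.018 and 2.61 CPM. Cxcl12 stood at 0, 2.99, 6.89 and 3.25 CPM, with counts in only 0, 1, 1 and 2 cells.

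Of the proteases that cut chemokines 5 of 11 were measured, with 1 higher and 1 lower with the gate in the wild type, 2 lower with it in the knockout, and 1 higher and 1 lower for the knockout in each gate. Of all measured genes 15.18% were higher and 19.91% lower with the gate in the wild type, and 12.36% and 21.98% in the knockout. For the knockout the shares were 16.52% and 13.27% in unselected and 11.4% and 12.08% in gated cells. Adam10, which releases Cxcl16, was even across groups at 245, 224, 318 and 203 CPM, and Adam17, a related sheddase, stood at 138, 128, 215 and 146 CPM. Mmp2 stood at 54.8, 3.92, 21.0 and 6.14 CPM, Mmp14 at 3.34, 12.15, 7.77 and 0 CPM, and Ide at 51.6, 30.0, 96.4 and 102 CPM. The list medians were -0.13, -0.65, 0.63 and 0.19. Of 9 heparan sulfate proteoglycans 4 were measured, and Cd44 was the 1 past 2-fold in 3 comparisons, at 0.82, 18.6, 0.12 and 45.2 CPM. The shares of all genes given for the proteases apply to this count too. The other proteoglycans were Sdc3 at 16.99, 32.6, 33.9 and 28.5 CPM, Sdc4 at 146, 241, 170 and 222 CPM, and Srgn at 16.2, 21.7, 16.4 and 27.1 CPM. The medians of the 4 were 0.81, 0.54, 0.12 and 0.09.

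Genes of NF-kB signalling and of the interferon response are known to accompany chemokine induction. Of 17 measured NF-kB subunits, inhibitors and targets, 1 was at least 2-fold higher and 4 lower with the gate in the wild type, 2 higher and 4 lower with it in the knockout, 1 higher and 6 lower for the knockout in unselected cells, and 0 higher and 4 lower in gated cells. The shares of all measured genes, higher and lower, were 15.18% and 19.91%, 12.36% and 21.98%, 16.52% and 13.27%, and 11.4% and 12.08% in these comparisons. The list medians were -0.17, -0.14, -0.63 and -0.26. Relb stood at 13.6, 11.96, 18.3 and 1.72 CPM, Nfkbid at 38.2, 16.9, 18.3 and 2.30 CPM, Ier3 at 19.8, 9.39, 4.15 and 15.7 CPM and Tnf at 0.82, 0, 6.12 and 0.30 CPM. Of 15 measured interferon response genes 4 were higher and 0 lower with the gate in the wild type, 6 and 3 with it in the knockout, 5 and 1 for the knockout in unselected cells and 3 and 0 in gated cells, with medians of 0.22, 0.54, 0.00 and 0.54. Oasl2 stood at 0.026, 15.1, 2.92 and 10.5 CPM, Ifi204 at 0, 9.15, 0 and 11.7 CPM, Ifit3 at 0, 5.77, 0 and 9.65 CPM and Ifit1 at 0, 4.69, 6.82 and 7.35 CPM, beside the absent Cxcl10. These 4 were the ones called higher with the gate in the wild type. All were under 5 CPM in wild-type unselected cells and passed the limit of 5 CPM through other groups. Calls of higher levels against that group were thus favoured by the limit.

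The immediate early and dissociation genes moved in both directions. Of 15 measured, 3 were higher and 5 lower with the gate in the wild type, 3 and 7 with it in the knockout, 3 and 0 for the knockout in unselected cells and 2 and 1 in gated cells, with medians of -0.77, -0.78, 0.00 and -0.32. Over all measured genes, too, more were lower than higher with the gate, at 19.91% against 15.18% in the wild type and 21.98% against 12.36% in the knockout. For the knockout 16.52% of genes were higher and 13.27% lower in unselected cells, and 11.4% and 12.08% in gated cells. Fos stood at 10.14, 0.13, 8.17 and 0 CPM, Egr1 at 5.31, 1.99, 26.03 and 3.96 CPM, Dusp1 at 0.31, 0.37, 15.99 and 0 CPM and Nr4a1 at 0, 6.40, 0 and 4.93 CPM. Outside the naming rule, and chosen after their values were seen, Jun stood at 177, 122, 183 and 65.6 CPM, and Atf3 at 27.6, 83.9, 21.3 and 60.9 CPM, at least 2-fold higher with the gate in both genotypes as Ccl3 was. Fos went the other way, but had counts in only 4, 1, 1 and 0 cells, against 10, 32, 8 and 37 for Atf3. Egr1 had counts in 5, 4, 3 and 3 cells, Dusp1 in 1, 1, 4 and 0 and Nr4a1 in 0, 1, 0 and 4. The part of dissociation in the ligand levels was not tested.

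Markers of border-associated macrophages, which lie at the brain's surfaces and vessels, moved with the gate. For the gate 9 of 10 were at least 2-fold higher in each genotype, with medians of 4.52 and 3.58. The shares of all measured genes were 15.18% and 12.36%. For the knockout 1 was higher in unselected cells and 1 higher and 2 lower in gated cells, with medians of 0.24 and -0.36. Of all genes 16.52% were higher in unselected and 11.4% higher and 12.08% lower in gated cells. The summed level of the 10 markers per cell ran from 0 to 2200, 15828, 4190 and 16237 CPM. Cd163, Lyve1, F13a1, Cd209f and Siglec1 were at 0 in wild-type unselected and F13a1, Cd209f and Siglec1 in knockout unselected cells. These 5 passed the limit of 5 CPM only through gated cells. So did Pf4, Ms4a7 and Cbr2, which were also under 5 CPM in both unselected groups. Calls of higher levels with the gate were thus favoured by the limit for most of this list. In knockout gated cells Cd163 and Cd209f had counts in 1 cell each and Lyve1 in 2. Counts for at least 3 of the 10 markers were found in 1, 28, 5 and 35 cells. Without those cells the gate difference of Ccl3 was 2.78 in wild-type and 1.27 in knockout cells, against 2.44 and 1.05 with them. That of Ccl9 was 1.47 and 1.38, against 1.30 and 1.06. The genotype differences of Ccl12 and Cxcl16 in gated cells were then -0.79 and -0.91, under 2-fold, while that of Ccl4 was -1.75. The part of border-associated macrophages in the ligand levels was not tested.

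Microglia markers were lower in gated cells, with 3 of 9 at least 2-fold lower in wild-type and 6 of 9 in knockout cells and medians of -0.52 and -1.16. Of all measured genes 19.91% and 21.98% were lower, with medians of -0.12 and -0.26. For the knockout 0 of 9 were past 2-fold in unselected and 3 lower in gated cells, with medians of -0.04 and -0.50. Of all genes 16.52% were higher and 13.27% lower in unselected and 12.08% lower in gated cells. The part of these markers in the ligand differences was not tested. Of 8 monocyte markers 4 to 6 were at 0 in each group, Ccr2 and Ly6c2 in all, and the sum was 6.29 to 18.6 CPM. The neutrophil list summed to 226 to 287 CPM, with S100a9 and Mmp8 at 0 in every group. Most of that sum was 1 gene, Csf3r, at 249, 273, 236 and 223 CPM. The summed levels were at most 0.98 CPM for lymphocyte, 1.15 for mast cell, 4.66 for neuron, 23.5 for oligodendrocyte lineage, 28.9 for endothelium and pericyte and 67.1 for astrocyte markers.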

How the data were processed

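The unit is the read count per gene, in 1 table deposited by the authors without normalization. Per the submitters' processing notes the build was mm10, and HTSeq, Picard, STAR 2.5.3a and Trim Galore 0.4.3 were among the tools. Annotation and strand setting: not given in the sources used here. Cells passed all 3 labelled quality criteria, which left out 12, 3, 3 and 17 cells. Doublets were not searched for, since each well was sorted to hold 1 cell. The 92 spike-in rows (3.56% of counts) stayed out of library sizes.

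Counts were summed over a group's cells and divided by its summed gene counts (CPM), with exact Poisson intervals. Measured genes reached 5 CPM in at least 1 group. A difference was called by size alone, without a test, when levels plus 1 CPM differed at least 2-fold and mean CPM per cell pointed the same way. Cells were thinned to 100000 gene counts with a fixed seed, with a second seed as an alternative, and shares have Clopper-Pearson intervals. A value of 0 was set against a floor of 3 counts. Recovery of known folds was checked on simulated data.

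All 9 ligands, Trem2, Gpnmb and Clec7a were named, and of each list up to 4 measured members, those with the largest difference in any comparison, could be named. The receptors Ccr1, Ccr2, Cxcr3 and Cxcr6, the proteases Adam10 and Adam17 and the 3 genes most like each ligand were named too, and 1 item that the rule names outright is not reported here. Of 203 list symbols 202 were matched, 5 by an older symbol. Members and lists were chosen with earlier results of these data known. Coordinates come from GENCODE M21, matched by symbol, and promoter windows from RefSeq on GRCm38.p6. Python 3.11.15, numpy 2.4.6, scipy 1.17.1 and, for TMM and RLE factors, edgeR 4.0.16 were used. Alternatives were other scalings, pseudocounts, limits and sets of cells. Those without Rn45s or without cells with fewer than 7 microglia markers were chosen after the data were seen.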

Additional observations from a re-analysis of the deposited data

Results flagged for a closer look

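The gate difference of Ccl7 had opposite directions in the genotypes, with a log2 of 1.32 in wild-type and -1.72 in knockout cells, and the difference between them was not tested. It rests on 11 positive wild-type gated cells and 1 positive knockout unselected cell.

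The 35 cells that failed the quality criteria, which no comparison used, held 5326 counts of the 9 ligands in 19 cells. Ccl3 gave 1427 of these counts in 8 cells, Ccl6 1120 in 11 cells, Ccl4 897 in 3 cells and Ccl2 621 in 2 cells, and Cxcl10 gave 0. Their gene counts ran from 1 to 746299 with a median of 36596.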

How the results depend on the processing

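Counts of ligands past 2-fold stayed within 1.5 times the value above in 100 of 120 cases. Of the 792 recomputed values 352 were log2 differences, and none of these reversed a called direction. The rest were counts and shares, which have no direction to reverse. Some differences that were not called did turn, such as Ccl2 for the gate in the knockout, from -0.91 to 0.35 with spike-in scaling. Spike-in scaling gave 4 higher for the gate in the knockout, beside 50.5% of all measured genes. It gave 0 higher and 1 lower for the knockout in unselected cells, beside 9.59% and 22.3% of genes. Shares of all genes are not given for the other settings. The counts below therefore show only how ligand calls moved and cannot be set against all genes. A pseudocount of 0.1 CPM gave 2 higher and 1 lower in unselected cells, and 10 CPM gave 1 higher for the gate in the knockout and 3 lower in knockout gated cells. At 1.5-fold, 3 were higher and 1 lower in unselected cells. At 4-fold, 3 were higher for the gate in the wild type, 0 for the gate in the knockout and 0 in knockout unselected cells, and 1 was lower in knockout gated cells (Ccl7). Cells with 2000 to 4500 detected genes gave 4 higher and 1 lower in unselected cells. Without cells with 3 border macrophage markers 2 were higher in unselected and 3 lower in gated knockout cells. Leaving Rn45s out of the totals gave 1 lower in unselected cells, and leaving out 13 cells with fewer than 7 microglia markers gave 1 higher for the gate in the knockout (Ccl3, with Ccl9 at 0.97) and 2 higher in unselected cells. The share of Ccl3 cells with Ccl4 in the knockout gated group was 10.6% at 5 thinned counts. The cause of these changes was not tested. No paired analysis was possible because each group is 1 plate of different cells and the numbers only name cells. Counts of ligands near 2-fold, such as Ccl3 in unselected and Ccl3 and Ccl9 in knockout cells, and ligands in few cells, Ccl2 and Ccl7, are the least certain.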
